A study of Mus musculus with 6 samples.

Results

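The pentose phosphate pathway and the cytosolic enzymes that make NADPH are described here through 9 genes, G6pdx, H6pd, Pgls, Pgd, Rpia, Rpe, Tkt, Taldo1 and Idh1. They were taken by exact symbol from the 36144 gene rows of the deposited table, and all 9 were found on 1 row each. The table comes from poly-A RNA sequencing of subcutaneous white adipose tissue, the fat under the skin of the mouse, in 6 libraries. The titles name 3 of them Tumor and 3 WT and call them biological replicates. The genotype label gives the Tumor libraries as MSRA full-body KO and the WT libraries as MSRA WT, Msra being the gene for methionine sulfoxide reductase A. All 6 share a single treatment label, orthotopic transplant. In the design text, pancreatic ductal adenocarcinoma cells went into hosts of both genotypes and fat was collected 4 to 5 weeks later, while the series title contrasts tumour bearers with mice that had no tumour. Whether the contrast is tumour, genotype or both can therefore not be told from the labels, and the groups are called Tumor and WT after the titles. No age, sex or strain is given in the labels used here.

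In the oxidative branch of the pathway, glucose 6-phosphate is oxidised to ribulose 5-phosphate and NADP is reduced to NADPH. The non-oxidative branch interconverts the pentose phosphates and returns carbon to glycolysis as fructose 6-phosphate and glyceraldehyde 3-phosphate. Adipocytes use cytosolic NADPH to build fatty acids, and glutathione and thioredoxin are kept reduced with it. Cytosolic isocitrate dehydrogenase and malic enzyme are the other well-known sources of cytosolic NADPH in fat.

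The libraries differed in make-up in a way that crossed the groups. Tumor replicate 1 and WT replicate 3 were poor in lymphoid transcripts: the 8 B cell and lymph node markers summed to 61.6 TPM in Tumor replicate 1 and 45.5 TPM in WT replicate 3, against 2424 to 4777 TPM in the other libraries. TPM is the share of a transcript among all transcripts, corrected for length and set to a fixed total of 1000000, so that more of some transcripts lowers the TPM of all others. The 9 adipocyte markers summed to 12892 to 45212 TPM in Tumor libraries and 31074 to 55115 TPM in WT libraries, so the tissue label was borne out by its markers. Skeletal muscle markers (7 genes) summed to 619 to 2468 TPM in Tumor libraries and 9.62 to 2954 TPM in WT libraries, and macrophage markers (6 genes) to 783 to 1759 TPM and 768 to 864 TPM. Brown and beige adipocyte markers (4 genes) did not overlap, at 222 to 377 TPM in Tumor libraries and 811 to 2141 TPM in WT libraries. Adipocyte, B cell and lymph node, and skeletal muscle markers were each set as a covariate in alternative fits. The part of these differences in the results below was not otherwise tested. In bulk tissue fewer cells of a type and less RNA per cell cannot be told apart. Msra, the gene named as deleted, stood at 52.9, 40.0 and 26.9 TPM in Tumor libraries and at 51.1, 59.1 and 56.3 TPM in WT libraries, so it was not lost in the libraries labelled MSRA full-body KO, and every direction below is between the title labels. A value summed over the gene does not show whether an exon is missing.

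Transketolase, transaldolase and 6-phosphogluconate dehydrogenase were lower in every Tumor library than in every WT library. The means of Tkt, Taldo1 and Pgd were 2.74-fold, 1.61-fold and 2.04-fold lower in Tumor libraries. The other 6 genes overlapped between the groups. By comparison, 3.24% of the 14144 tested genes were lower without overlap, and 11.8% were higher without overlap. No gene passed the test of the groups, limma on log2(TPM + 1) with p-values adjusted over all tested genes: 0 of 14144 genes (0%) and 0 of the 9 fell under the threshold of 0.05, the lowest adjusted value of any gene being 0.206. At an unadjusted limma p below 0.05, 3 of the 9 genes were lower and 0 higher, while 1.7% of all tested genes were lower and 3.75% higher. The brown and beige marker sum was lower in every Tumor library as well, and the part of that difference in these 3 genes was not tested.

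**Figure D1:**
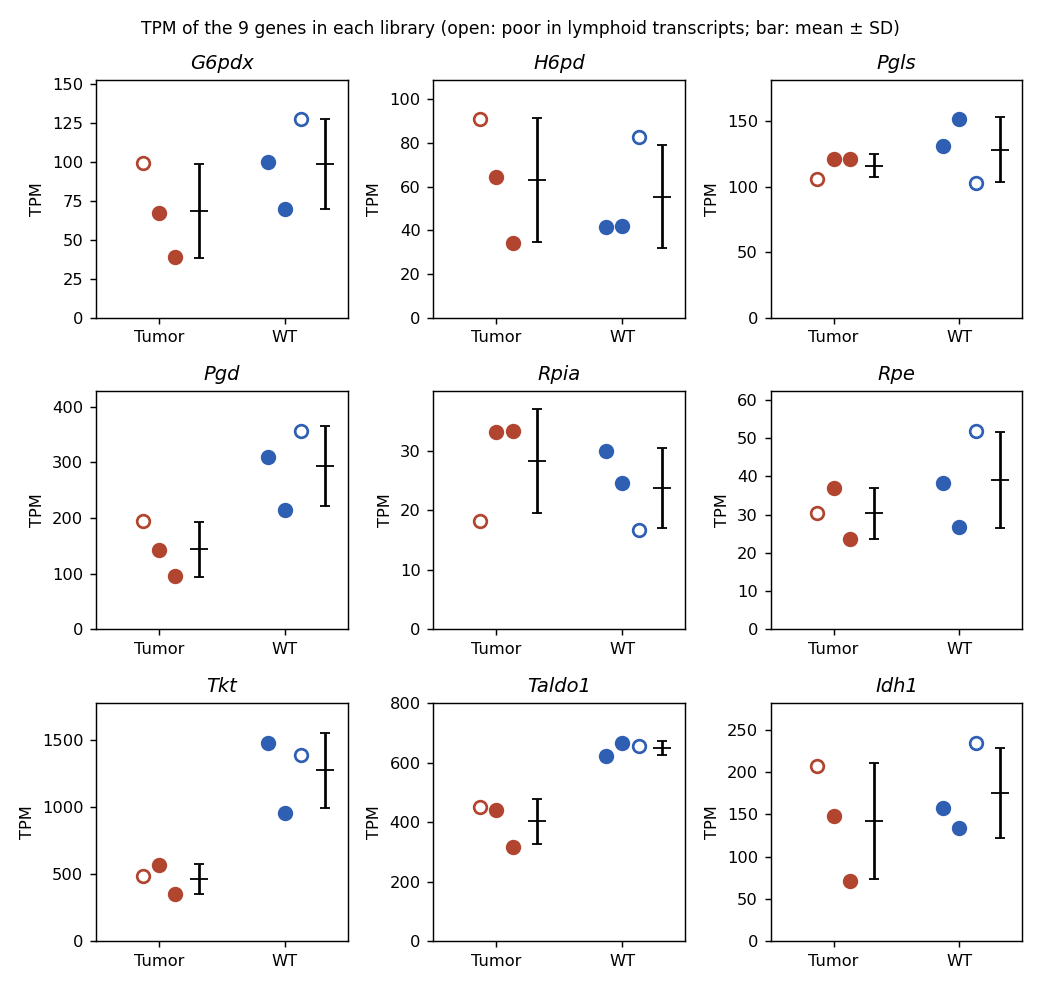
TPM of each of the 9 genes in the 3 Tumor and 3 WT libraries, 1 point per library, with the mean and SD beside each group and open points for Tumor replicate 1 and WT replicate 3. Tkt, Taldo1 and Pgd separate the groups, with Tkt at 347 to 567 TPM in Tumor libraries and 957 to 1483 TPM in WT libraries, while the points of the other 6 genes overlap.

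The non-oxidative branch held both the highest and the lowest mean TPM of the 9 genes. Transketolase, the thiamine diphosphate enzyme that moves 2-carbon units between sugar phosphates, is encoded by Tkt on chromosome 14 (30548359 to 30574720, GRCm38). Tkt stood at 482, 567 and 347 TPM in Tumor replicates 1 to 3 and at 1483, 957 and 1386 TPM in WT replicates 1 to 3. All 3 Tumor values lay below the lowest WT value. The means were 465 ± 111 TPM in Tumor libraries and 1275 ± 280 TPM in WT libraries (SD, n = 3 each). The log2 difference was -1.46 (SE 0.29, 95% interval -2.17 to -0.74, limma adjusted p = 0.737), and its p ranked 33 among all tested genes. Since no values overlapped, Tkt is lower in Tumor in any split of the libraries, so a split describes only the size of the difference. In the pair poor in lymphoid transcripts, a single library of each group, Tkt was 2.88-fold lower in Tumor replicate 1 than in WT replicate 3. In the 4 lymphoid-rich libraries it was 2.67-fold lower in the mean of Tumor libraries than in that of WT libraries.

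Transaldolase, which transfers 3-carbon units in the same branch, is encoded by Taldo1 on chromosome 7 (141392199 to 141402968). Taldo1 stood at 451, 443 and 317 TPM in Tumor libraries and at 625, 668 and 656 TPM in WT libraries. The WT values lay close together and the Tumor values below all of them. The means were 404 ± 75.4 TPM and 650 ± 22.6 TPM (SD, n = 3 each), and on the log2 scale they differed by -0.70 (SE 0.22, 95% interval -1.23 to -0.18, limma adjusted p = 0.737). It was 1.45-fold lower in Tumor replicate 1 than in WT replicate 3, and 1.70-fold lower in Tumor than in WT among the lymphoid-rich libraries. The direction in each split follows from the lack of overlap.

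Ribulose 5-phosphate is sent into this branch by an isomerase and an epimerase, and neither transcript separated the groups. Rpia, the ribose 5-phosphate isomerase, stood at 18.1, 33.2 and 33.3 TPM in Tumor libraries and at 30.0, 24.6 and 16.7 TPM in WT libraries. Its lowest values were those of Tumor replicate 1 and WT replicate 3, the libraries poor in lymphoid transcripts. The log2 difference of Rpia was 0.23 (95% interval -0.58 to 1.03, limma adjusted p = 0.837), close to the median of all tested genes, which was 0.23. It was 0.51 without Tumor replicate 1 and 0.0022 without WT replicate 3. Rpe, the ribulose 5-phosphate epimerase, stood at 30.5, 36.9 and 23.7 TPM in Tumor libraries and at 38.4, 26.9 and 51.9 TPM in WT libraries. Its highest value was that of WT replicate 3, and the groups overlapped. The log2 difference of Rpe was -0.33 (95% interval -1.04 to 0.39, limma adjusted p = 0.767), and it turned to 0.097 with the skeletal muscle markers as a covariate. It was -0.56 without WT replicate 2 and -0.10 without WT replicate 3.

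Among the oxidative enzymes the last step differed most. Pgd, 6-phosphogluconate dehydrogenase, makes the second NADPH of the branch and lies on chromosome 4 (149149991 to 149166771). Pgd stood at 195, 142 and 95.8 TPM in Tumor libraries and at 310, 214 and 356 TPM in WT libraries. The highest Tumor value, in replicate 1, was below the lowest WT value, in replicate 2. The means were 144 ± 49.5 TPM and 293 ± 72.6 TPM (SD, n = 3 each), and on the log2 scale they differed by -1.05 (SE 0.33, 95% interval -1.85 to -0.24, limma adjusted p = 0.737). It was 1.83-fold lower in Tumor replicate 1 than in WT replicate 3 and 2.20-fold lower in Tumor than in WT among the lymphoid-rich libraries. As for Taldo1, the lack of overlap fixes the direction in each split.

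G6pdx, the X-linked glucose 6-phosphate dehydrogenase, catalyses the committed first step. It stood at 99.4, 67.0 and 38.9 TPM in Tumor libraries and at 99.6, 69.5 and 127 TPM in WT libraries. Tumor replicate 1 lay level with WT replicate 1, and the groups overlapped. The means of G6pdx were 68.4 ± 30.2 TPM and 98.7 ± 28.8 TPM (SD, n = 3 each), and the log2 difference was -0.58 (SE 0.39, 95% interval -1.54 to 0.38, limma adjusted p = 0.737). Leaving out Tumor replicate 1, WT replicate 3 or Tumor replicate 3 gave -0.89, -0.38 and -0.23, and it was -0.29 and -0.19 with the adipocyte and skeletal muscle covariates. Pgls, the lactonase between these dehydrogenases, varied least of the 9 genes over the 6 libraries. It stood at 106, 121 and 121 TPM in Tumor libraries and at 131, 151 and 103 TPM in WT libraries. The coefficient of variation of Pgls was 14.5% over all libraries, against 55.5% for Tkt, and its log2 difference was -0.13 (95% interval -0.59 to 0.34, limma adjusted p = 0.841), running from -0.28 without WT replicate 3 to -0.00016 without WT replicate 2.

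H6pd makes NADPH outside the cytosol, and Idh1 outside the pathway. H6pd encodes the endoplasmic reticulum enzyme that carries out the dehydrogenase and lactonase steps inside the lumen. It stood at 90.9, 64.4 and 34.2 TPM in Tumor libraries and at 41.5, 42.2 and 82.6 TPM in WT libraries. Its highest values came from Tumor replicate 1 and WT replicate 3, and the lowest from Tumor replicate 3, the library with the lowest adipocyte marker sum. The log2 difference of H6pd was 0.15 (95% interval -0.92 to 1.23, limma adjusted p = 0.916). It turned to -0.062 and -0.042 with median-ratio and upper-quartile factors, and to -0.16 without Tumor replicate 1, -0.014 without WT replicate 1 and -0.00053 without WT replicate 2. It rose to 0.53 without Tumor replicate 3 and 0.48 without WT replicate 3. With the adipocyte, skeletal muscle, and B cell and lymph node covariates it was 0.50, 0.46 and 0.29. Idh1, the NADP-dependent isocitrate dehydrogenase of the cytosol and peroxisome, stood at 208, 148 and 70.8 TPM in Tumor libraries and at 157, 134 and 235 TPM in WT libraries. Tumor replicate 1 and WT replicate 3 were again the highest of their groups, and Tumor replicate 3 was lowest. The log2 difference of Idh1 was -0.39 (95% interval -1.46 to 0.68, limma adjusted p = 0.804), which turned to 0.043 when Tumor replicate 3 was left out. The adipocyte markers as a covariate left -0.044.

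**Figure D2:**
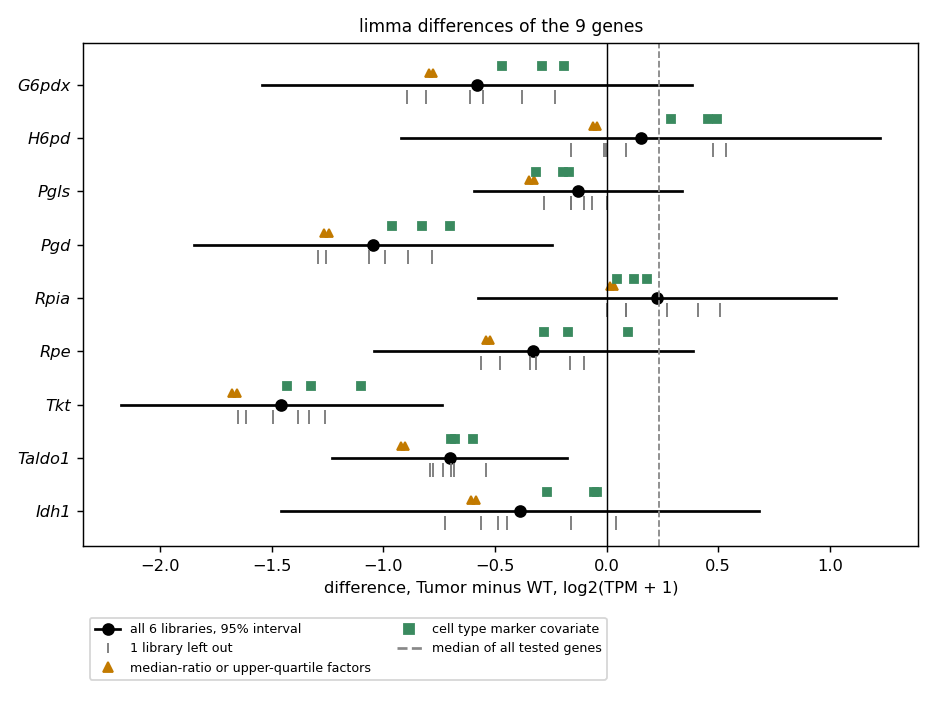
Differences of the 9 genes on the log2(TPM + 1) scale, Tumor minus WT, with limma 95% intervals (black), the fits that leave out 1 library (grey), other scalings (orange) and cell type marker covariates (green). The dashed line is the median of all tested genes, 0.23. The fits drawn for Tkt run from -1.68 to -1.10, those for Pgd from -1.29 to -0.70 and those for Taldo1 from -0.92 to -0.54, while those for H6pd fall on both sides of 0.

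The median of the 9 differences was -0.39, beside 0.23 for all tested genes, and 7 of the 9 were negative, against 23.2% of all tested genes. With median-ratio factors, which brought the median of all genes to 0.038, the median of the 9 was -0.61 and 8 of 9 were negative, against 44.6% of all tested genes. With upper-quartile factors it was -0.59. Without Tumor replicate 1 the median of the 9 was -0.73, and without Tumor replicate 3 it was -0.17. With the adipocyte, B cell and lymph node, and skeletal muscle covariates it was -0.20, -0.28 and -0.19. The median of all tested genes was 0.20, 0.21 and 0.28 in those fits. Fewer libraries can only keep or raise a count without overlap, so that count is no check of the 3 genes. It was 5 without WT replicate 2, where G6pdx and Rpe joined, and 5 in the lymphoid-rich libraries alone, where G6pdx and Pgls joined. Among those 4 libraries Rpia was higher in Tumor without overlap. The share of all tested genes without overlap was not counted in these smaller sets. G6pdx, Rpe, Pgls and Rpia therefore have no background there to be read against.

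The share of the summed TPM of the 9 genes does not depend on how a library was scaled, unlike the sum itself. The sum was 1680, 1623 and 1081 TPM in Tumor libraries and 2915, 2288 and 3015 TPM in WT libraries, without overlap. Tkt held 28.7%, 34.9% and 32.1% of it in Tumor libraries and 50.9%, 41.8% and 46.0% in WT libraries. The mean share of Tkt was 31.9 ± 3.14% and 46.2 ± 4.52% (SD, n = 3 each). Taldo1 held 27.8 ± 1.29% of the sum in Tumor libraries and 24.1 ± 4.40% in WT libraries, and Pgd 9.73 ± 1.61% and 10.6 ± 1.23%, so that for both the spread within a group covered the gap. H6pd held 4.18 ± 1.14% in Tumor libraries and 2.00 ± 0.673% in WT libraries. Rpia held 2.07 ± 1.00% and 0.886 ± 0.289%, and Rpe 2.09 ± 0.244% and 1.405 ± 0.283%. The shares of H6pd, Rpia and Rpe did not overlap between the groups, whereas their TPM did. The mean shares of Pgls, Idh1 and G6pdx were also higher in Tumor libraries, with overlap. Shares in a library have a fixed sum, so the lower share of Tkt raises the sum of the other shares.

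**Figure D3:**
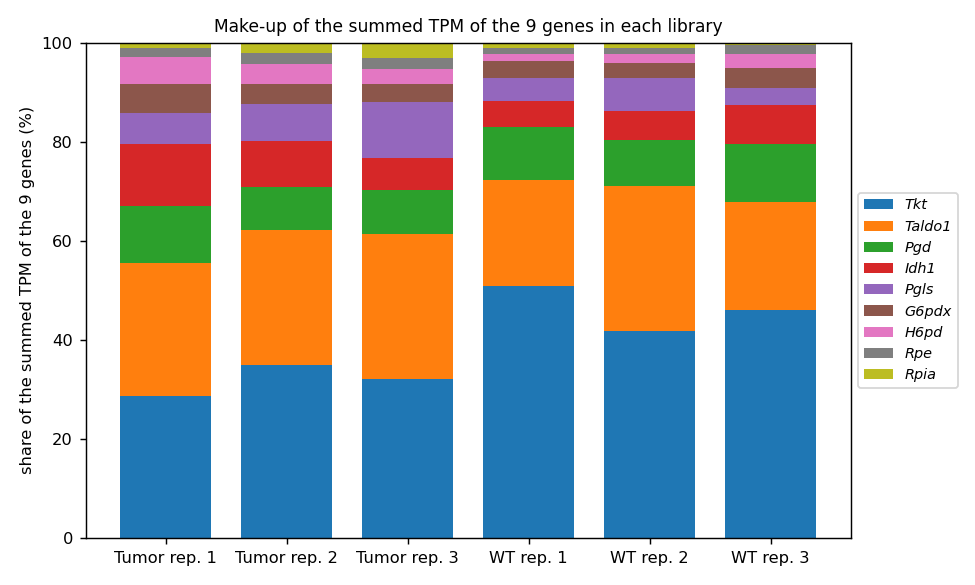
Share of the summed TPM of the 9 genes held by each gene, in percent, 1 bar per library with Tumor at the left and WT at the right. Tkt, the lowest block, holds 28.7% to 34.9% in Tumor libraries and 41.8% to 50.9% in WT libraries.

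Ratios between the genes within a library are free of the scaling too, and all 36 pairs were compared after the levels had been seen. The groups did not overlap in 14 of the 36 pairs. Over all pairs of tested genes detected in every library 10.1% did not overlap. Tkt took part in 7 of the 14 as the gene that was lower in Tumor, in its ratios to every other gene except Pgd. Against all other tested genes, the ratio of Tkt was lower in Tumor without overlap for 82.8%, that of Pgd for 64%, that of Taldo1 for 57.9% and that of H6pd for 0.919%. The ratio of H6pd was higher without overlap for 4.84%. With 3 libraries in each group, the smallest two-sided p of an exact permutation test is 0.1. All 14 pairs reached that value, with an adjusted p of 0.257 over the 36. The lack of overlap by which the 14 were picked forces that value, so this test adds nothing to it.

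Within the non-oxidative branch, transketolase exceeded transaldolase by less in Tumor libraries. The ratio of Tkt to Taldo1 was 1.07, 1.28 and 1.10 in Tumor libraries and 2.37, 1.43 and 2.11 in WT libraries. It was above 1 in all 6 libraries. The ratio of Tkt to Rpe was 15.8, 15.4 and 14.7 in Tumor libraries and 38.6, 35.6 and 26.7 in WT libraries, with little spread among the Tumor values. Between the oxidative dehydrogenases, the ratio of Pgd to G6pdx was 1.96, 2.12 and 2.46 in Tumor libraries and 3.11, 3.08 and 2.80 in WT libraries. The ratio of the cytosolic to the reticular glucose 6-phosphate dehydrogenase, G6pdx to H6pd, did not overlap either. It was 1.09, 1.04 and 1.14 in Tumor libraries and 2.40, 1.65 and 1.54 in WT libraries. Against all other tested genes, the ratio of G6pdx was lower without overlap for 24.1% and that of H6pd higher for 4.84%. Among Tumor libraries the levels of G6pdx and H6pd spread from 38.9 to 99.4 TPM and from 34.2 to 90.9 TPM, while their ratio stayed between 1.04 and 1.14. G6pdx to Idh1 overlapped, at 0.479, 0.451 and 0.549 in Tumor libraries and 0.633, 0.520 and 0.541 in WT libraries.

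In order of mean level, Tkt and Taldo1 came first in both groups, followed by Pgd, Idh1 and Pgls, then G6pdx and H6pd, and last Rpe and Rpia. In Tumor libraries the values of Tkt and Taldo1 overlapped, as did those of Pgd, Idh1 and Pgls and those of G6pdx, H6pd, Rpe and Rpia, each with its neighbour. In WT libraries Tkt stood apart from Taldo1 and Taldo1 from Pgd, and every later neighbour overlapped.

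By the root-mean-square difference of centred log2(TPM + 1) over the 6 libraries, the closest other member was Idh1 for G6pdx (0.154), Idh1 for H6pd (0.300) and Pgd for Tkt (0.306). Among all tested genes with a mean of at least 10 TPM, the 3 closest to Tkt were Fam57b (0.0896), the mitochondrial citrate carrier Slc25a1 (0.124) and Tmem79 (0.151). Slc25a1 stood at 302, 349 and 206 TPM in Tumor libraries and at 1010, 710 and 1021 TPM in WT libraries. The 3 closest to G6pdx were the transcription factor Atf5 (0.0886), Tmem120b (0.106) and Cdr2 (0.113). H6pd was closest to Tcf7l1 (0.0543), Hacd1 (0.0544) and Lgalsl (0.0573). These likenesses describe 6 libraries that also share their tissue make-up.

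Near-identical copies were looked for among the GENCODE M21 transcripts, as aligned stretches of at least 200 bases at 90% identity or more. G6pdx has the copy G6pd2, alike at 93.2% over 2332 bases and listed at 0 TPM in all 6 libraries, and Taldo1 has the processed pseudogene Gm17823, alike at 94.7% over 923 bases and at most at 0.735 TPM. The other 7 genes had no such copy. No source used here says how reads shared with a copy were divided.

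The promoter windows of the 3 genes that separated the groups are shown with that of H6pd, which did not, so that the letters can be compared. Each runs from 250 bases before to 50 bases after the RefSeq start on GRCm38.p6, read 5′ to 3′ on the gene's strand, and windows were found for all 9 genes, with a second window for Pgd and Idh1 that is not shown. Capitals mark matches on either strand to the Sp1 box GGGCGG, the CCAAT box CCAAT and the core of the antioxidant response element TGACNNNGC. Windows lie at chr14:30548881-30549180, plus strand for Tkt, chr7:141391910-141392209, plus strand for Taldo1, chr4:149166656-149166955, minus strand for Pgd and chr4:150003187-150003486, minus strand for H6pd.
Tkt: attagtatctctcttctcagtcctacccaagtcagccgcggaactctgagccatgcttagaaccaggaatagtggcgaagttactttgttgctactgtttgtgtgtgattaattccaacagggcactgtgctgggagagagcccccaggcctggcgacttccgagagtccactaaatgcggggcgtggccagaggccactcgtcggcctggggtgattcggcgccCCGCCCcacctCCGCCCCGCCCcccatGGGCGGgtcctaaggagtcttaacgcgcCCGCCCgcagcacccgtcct
Taldo1: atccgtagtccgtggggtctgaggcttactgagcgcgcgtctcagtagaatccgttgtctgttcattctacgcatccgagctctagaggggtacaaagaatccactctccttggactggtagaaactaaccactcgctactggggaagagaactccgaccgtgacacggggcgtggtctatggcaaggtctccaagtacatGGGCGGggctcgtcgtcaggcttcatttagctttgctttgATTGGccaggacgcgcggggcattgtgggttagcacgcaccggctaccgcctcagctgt
Pgd: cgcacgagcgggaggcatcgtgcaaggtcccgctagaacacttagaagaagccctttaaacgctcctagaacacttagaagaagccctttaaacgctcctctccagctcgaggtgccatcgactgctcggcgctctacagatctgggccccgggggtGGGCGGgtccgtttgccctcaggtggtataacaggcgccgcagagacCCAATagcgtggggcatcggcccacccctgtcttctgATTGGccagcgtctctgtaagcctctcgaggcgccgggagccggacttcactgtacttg
H6pd: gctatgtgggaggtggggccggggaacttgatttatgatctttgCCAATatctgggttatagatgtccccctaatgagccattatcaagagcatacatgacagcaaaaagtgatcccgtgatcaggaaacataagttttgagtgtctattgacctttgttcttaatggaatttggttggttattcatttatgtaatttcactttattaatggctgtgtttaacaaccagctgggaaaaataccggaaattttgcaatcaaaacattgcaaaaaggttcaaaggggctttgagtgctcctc

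The Tkt window held 5 Sp1 boxes between bases -25 and 30 counted from the start, of which a pair overlap by 1 base. Taldo1 and Pgd held 1 Sp1 box each, and both had a CCAAT box on the reverse strand at base -9. H6pd had no Sp1 box and 1 CCAAT box, and its window was 39.3% G and C against 61% for Tkt. G6pdx, Pgls, Rpia, Rpe and Idh1, whose TPM also overlapped between the groups, each held an Sp1 box. Their windows were 60% to 67.3% G and C, so H6pd does not stand for the genes that overlapped. The RefSeq start of the H6pd window lies 5787 bases inside the 5′ end of the GENCODE gene, and that of Tkt 772 bases inside, so these windows stand at internal starts of the annotated genes. Those of Pgd and Taldo1 lie within 66 bases of it. In the counts that follow, a gene counts if any of its windows held a match, while the background share is per window. An Sp1 box was present in a window of 8 of the 9 genes and in 35.7% of 32851 promoter windows of the same length. CCAAT boxes were present for 5 of 9 genes and in 37.4% of windows. The antioxidant response core was present for 2 of 9 genes, in G6pdx on the reverse strand at base -57 and in the second Pgd window at base 3, and in 12.4% of windows. The hexamer CACGTG, the sterol element letters TCACNCCAC and the TATA box TATAAA matched no window of the 9 genes, against 7.15%, 1.24% and 13.6% of windows. Matches describe letters in these windows and show no binding.

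Other genes of pentose and ribose metabolism were followed as a list of 10, of which 7 were tested and 0 passed in either direction. G6pd2, Tktl1 and Tktl2 were below the filter of 1 TPM in 3 libraries. The median log2 difference of the 7 tested genes was 0.056, below the 0.23 of all tested genes. It was -0.15 with median-ratio factors and lay between -0.0028 and 0.24 over the left-out libraries. Pgm2, a phosphopentomutase, had the smallest p of this list and stood at 10.1, 8.82 and 10.9 TPM in Tumor libraries and 7.89, 6.28 and 7.92 TPM in WT libraries. The groups did not overlap, and the log2 difference of Pgm2 was 0.39 (limma adjusted p = 0.737), or 0.15 above the median of all genes. Of the 7 tested genes, 1 was higher without overlap, beside 11.8% of all tested genes, and 0 were lower, beside 3.24%. Prps2, which makes phosphoribosyl pyrophosphate from ribose 5-phosphate, stood at 9.16, 19.4 and 24.1 TPM in Tumor libraries and at 15.9, 9.87 and 5.49 TPM in WT libraries, with overlap. As with Rpia, the lowest value of each group was that of the library poor in lymphoid transcripts.

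Of 13 other genes that make NADPH or NADP, all tested, 0 passed in either direction. Their median log2 difference was -0.018, and 7 of 13 were negative, against 23.2% of all tested genes. The share of all tested genes was 44.6% with median-ratio factors, where this list was not counted. The sign of this median depended on the setting: it was 0.17 without Tumor replicate 3, 0.11 without WT replicate 3, 0.26 with the skeletal muscle covariate, 0.10 with the adipocyte covariate and -0.19 with median-ratio factors. Me1, cytosolic malic enzyme, stood at 224, 175 and 127 TPM in Tumor libraries and at 927, 392 and 763 TPM in WT libraries. Every Tumor value lay below every WT value. The means of Me1 were 175 ± 48.6 TPM and 694 ± 274 TPM (SD, n = 3 each), 3.96-fold lower in Tumor, and -1.93 on the log2 scale (SE 0.39, limma adjusted p = 0.737). Nnt, the mitochondrial transhydrogenase, stood at 18.2, 18.8 and 16.0 TPM in Tumor libraries and at 14.1, 12.2 and 12.8 TPM in WT libraries. All Tumor values were above all WT values, and the log2 difference of Nnt was 0.41 (limma adjusted p = 0.737), or 0.18 above the median of all genes. Aldh1l2, the mitochondrial formyltetrahydrofolate dehydrogenase, was also higher without overlap. Its values were 1.60, 2.27 and 1.42 TPM in Tumor libraries and 1.30, 0.912 and 0.847 TPM in WT libraries. It is named because of that separation, after its values were seen. Of the 13 genes, 2 were higher without overlap, beside 11.8% of all tested genes, and 1 was lower, beside 3.24%.

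Enzymes that spend NADPH were followed as a list of 16, all tested, and 0 passed in either direction. Their median log2 difference was -0.22, and 11 of 16 were negative, against 23.2% of all tested genes. With median-ratio factors, where this list was not counted, 44.6% of all tested genes were negative. The median was -0.44 with median-ratio factors, -0.11 without Tumor replicate 3, -0.13 without WT replicate 3, -0.093 with the adipocyte covariate and -0.069 with the skeletal muscle covariate. Fasn, the fatty acid synthase, stood at 1168, 1092 and 736 TPM in Tumor libraries and at 4238, 3090 and 3764 TPM in WT libraries. On the log2 scale Fasn differed by -1.90 (SE 0.29, limma adjusted p = 0.737). Hsd17b12, the ketoacyl reductase of fatty acid elongation, stood at 119, 98.2 and 63.7 TPM in Tumor libraries and at 188, 173 and 223 TPM in WT libraries, without overlap. On the log2 scale it differed by -1.09 (SE 0.27, limma adjusted p = 0.737). Fasn, Hsd17b12, Tecr, Txnrd2 and Cbr1 were lower without overlap, and Txnrd1 and Cybb higher, the last 5 of these named after their values were seen. Thus 5 of 16 were lower without overlap, beside 3.24% of all tested genes, and 2 of 16 were higher, beside 11.8%. Cybb, a phagocyte NADPH oxidase subunit, stood at 27.5, 32.6 and 41.2 TPM in Tumor libraries and at 19.8, 14.9 and 8.82 TPM in WT libraries. The macrophage marker sum overlapped between the groups, and its part in this gap was not tested.

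Of 7 regulators 0 passed in either direction and 0 separated the groups. Their median log2 difference was 0.14, below the 0.23 of all tested genes, and it turned to -0.078 with median-ratio and -0.058 with upper-quartile factors. It lay between 0.063 and 0.18 over the left-out libraries. Mlxipl, which encodes the carbohydrate-responsive factor ChREBP, stood at 69.6, 54.5 and 20.3 TPM in Tumor libraries and at 83.3, 60.0 and 161 TPM in WT libraries. The log2 difference of Mlxipl was -1.11 (95% interval -2.48 to 0.26, limma adjusted p = 0.737). It was -0.59 without Tumor replicate 3, -0.72 without WT replicate 3, -0.52 with the skeletal muscle covariate and -0.67 with the adipocyte covariate. Nfe2l2, which encodes the antioxidant factor NRF2, stood at 75.6, 49.4 and 50.2 TPM in Tumor libraries and at 42.3, 44.5 and 53.1 TPM in WT libraries, with overlap and a log2 difference of 0.30 (95% interval -0.24 to 0.83, limma adjusted p = 0.742), or 0.063 above the median of all genes. The difference of Nfe2l2 was 0.099 without Tumor replicate 1 and 0.081 with median-ratio factors.

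**Figure D4:**
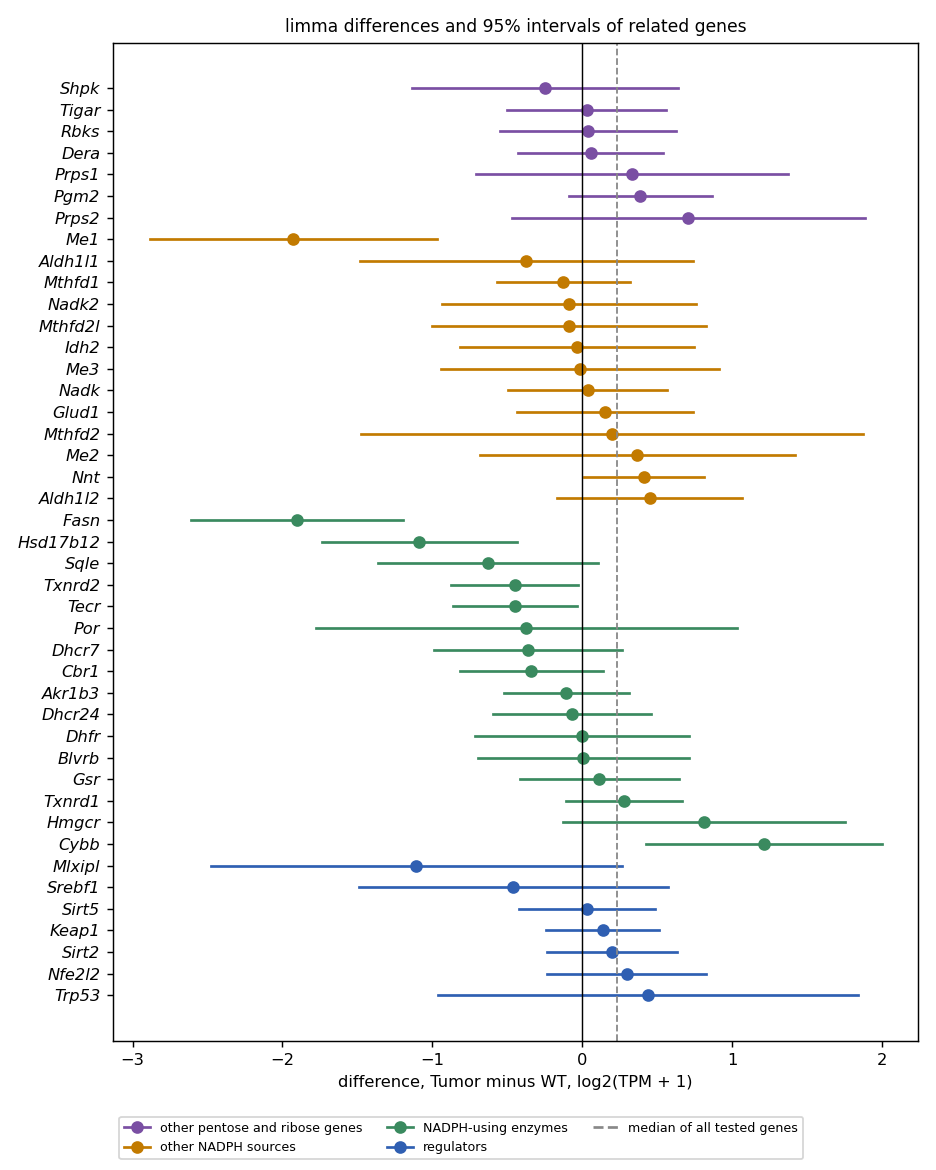
Differences on the log2(TPM + 1) scale, Tumor minus WT, with limma 95% intervals, for the tested genes of 4 lists: other pentose and ribose genes, other NADPH sources, NADPH-using enzymes and regulators. Me1 at -1.93 and Fasn at -1.90 lie farthest below 0 and Cybb at 1.21 farthest above, and the dashed line is the median of all tested genes.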

How the data were processed

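RNA of 6 subcutaneous fat libraries (integrity number above 7, poly-A selected) was analysed from 1 table deposited by the authors. It is named as raw counts, but the deposited values are TPM: each column sums to 1000000 and over 99% of values above 0 are not whole. The submitters' processing notes name the build GRCm38.p6 and DESeq2, without role or version, and no source used here names the aligner or the quantification tool. Read totals and counting error are therefore unknown, and no count test was run.

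The 14144 genes that reached 1 TPM in 3 or more libraries were fitted on log2(TPM + 1) with limma 3.58.1 (R 4.3.3), using a mean-variance trend, robust moderation and group alone, adjusted by Benjamini and Hochberg at 0.05. Differences on this scale understate changes of low genes. Copies were searched with BLAST 2.17.0, coordinates are from GENCODE M21 (GRCm38) and promoters from RefSeq (GRCm38.p6). Members, lists and motifs were chosen with earlier results of these data known. Named genes are the 9 members, Msra, the 2 members of each other list with the smallest p, since none passed, and the genes closest to G6pdx, H6pd and Tkt, besides those the text says were chosen after their values were seen. The identifiers of the groups lie in separate ranges, so a batch that follows them cannot be told apart. Alternatives were other pseudocounts, filters, scalings, limma settings and covariates, the replicate block and leaving out libraries. Figures were drawn with matplotlib 3.10.9.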

Additional observations from a re-analysis of the deposited data

How the results depend on the processing

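Under 19 alternatives none of the 9 genes passed. The number of genes called over the whole table was 0 throughout except with the B cell and lymph node markers as a covariate, where it was 1 (Gm11594, named after its value was seen; the cause was not tested). When each library was left out, the number of the 9 genes lower without overlap ran from 3 to 5, which omission can only keep or raise. The median difference of the 9 ran from -0.73 to -0.17 over the left-out libraries and from -0.28 to -0.19 with the marker covariates. In the lymphoid-rich libraries alone the number lower without overlap was 5. The share of all tested genes was not counted in these smaller sets. H6pd turned to -0.062 with median-ratio and -0.042 with upper-quartile factors and ran from -0.16 to 0.53 over the left-out libraries. Idh1 ran from -0.73 to 0.043 over the left-out libraries, and Rpe was 0.097 with the skeletal muscle covariate. The cause of these reversals was not tested. Tkt kept its sign throughout, with limma adjusted p-values from 0.198 to 0.991.

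With median-ratio factors the division of genes at an unadjusted limma p below 0.05 was 129 higher and 522 lower, against 530 and 241 without them. The deviations of same-numbered libraries correlated at -0.758, 0.205 and -0.843. Tumor replicate 1 and WT replicate 3, both poor in lymphoid transcripts, correlated at 0.853. Because tissue make-up enters these values, they cannot decide whether replicate numbers pair the samples. With the replicate number as a block 0 genes were called by limma, 183 had an unadjusted p below 0.05, and the median of the 9 was -0.39. Because read depth is unknown, no limit from depth can be given.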
